A study of Saccharomyces cerevisiae with 50 samples.

Results

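Serine, glycine and one-carbon metabolism was followed in budding yeast through 10 genes: SER3, SER33, SER1 and SER2 of serine synthesis, GCV1, GCV2 and GCV3 of glycine cleavage, the serine hydroxymethyltransferase genes SHM1 and SHM2, and the dehydrogenase gene MTD1. They were chosen by gene identity, as genes of this pathway, and all 10 were found in every count table, out of 5756 genes in the tables together. The study asked how gene expression differs between ribosomal protein deletion strains with long and short replicative lifespan, and what overexpression of the transcription factor Gcn4 does. Poly(A) mRNA was sequenced in 33 libraries and ribosome footprints in 17 libraries, 3 biological replicates per group except for the 2 footprint libraries of Δrpl6a.

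The strains all descend from BY4741 (MATa his3Δ1 leu2Δ0 ura3Δ0). The deletion strains Δrpl7a and Δrpl9a, which the study calls long-lived, and Δrpl6a, Δrpl15b and Δrps27b, which it calls short-lived, each carry a kanMX4 replacement of 1 gene from the haploid deletion collection. They and their wild type are also given as met15Δ0, and each strain stands for 1 deletion isolate. In PADH1-GCN4 the native GCN4 promoter and untranslated leader were exchanged on the chromosome for the ADH1 promoter, after a kanMX4 marker. The native leader holds the upstream reading frames that limit translation of Gcn4. PADH1-GCN4 S242L has in addition a serine-to-leucine change in the DNA-binding domain of Gcn4. These strains and their wild type, wt(met), have no met15 deletion. PGAL-GST-GCN4 carries the pEGH plasmid, from which a GST fusion of Gcn4 is made under a galactose-inducible promoter, and its wild type, wt(ura3), carries the plasmid pRS426. Both strains of this plasmid pair are met15Δ0. Cells were grown on YPD unless otherwise stated, and the labels do not give the medium of the plasmid pair. GAL1 mRNA stood between 3575 and 3813 CPM in PGAL-GST-GCN4 and between 5316 and 8555 CPM in wt(ura3), against at most 6.27 CPM in the other mRNA libraries. Cells for footprints were treated briefly with cycloheximide.

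Serine is made from 3-phosphoglycerate in the order of the paralogous dehydrogenases Ser3 and Ser33, the transaminase Ser1 and the phosphatase Ser2. Serine hydroxymethyltransferase, Shm1 in mitochondria and Shm2 in the cytosol, exchanges serine for glycine and passes a carbon unit to tetrahydrofolate. The mitochondrial glycine cleavage complex (Gcv1, Gcv2, Gcv3 and the shared subunit Lpd1) breaks glycine down and also yields a folate-bound carbon unit, and Mtd1 oxidises such units in the cytosol for purine synthesis. Gcn4 activates amino acid synthesis genes under starvation, and Bas1 acts with Pho2 on purine and one-carbon genes. Both proteins recognise the core TGACTC.

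The 10 genes are single-exon and lie apart in the genome (build R64, which is sacCer3). In serine synthesis these are SER3 (YER081W, chrV:322686-324095), SER33 (YIL074C, chrIX:221081-222490, minus strand), SER1 (YOR184W, chrXV:679357-680544) and SER2 (YGR208W, chrVII:911883-912812). In glycine cleavage they are GCV1 (YDR019C, chrIV:484163-485365, minus strand), GCV2 (YMR189W, chrXIII:637500-640604) and GCV3 (YAL044C, chrI:57950-58462, minus strand). The others are SHM1 (YBR263W, chrII:736264-737736), SHM2 (YLR058C, chrXII:257992-259401, minus strand) and MTD1 (YKR080W, chrXI:590395-591357), and genes with no strand given lie on the plus strand.

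The 500 bases before the start codon held this core, on either strand, in 8 of the 10 genes and in 12.7% of 6000 protein-coding genes. At least 2 copies stood before GCV2, GCV3, SHM2 and MTD1 (4 of 10 genes), against 1.43% of all genes, and SER3 and SHM1 had none. The core CTTCTT, which is known from the glycine response of the GCV genes in yeast, was found before 8 of the 10 genes, but also before 52.8% of all genes. The 30-base stretches around the TGACTC cores of the 3 glycine cleavage genes and of SER1 and SER2 are shown because the results turn on these genes. Each is written 5′ to 3′ on the strand of the gene, and capitals mark TGACTC or its reverse complement GAGTCA. The GCV1 stretch lies at chrIV:485491-485520 on the minus strand and begins 155 bases before the start codon. The GCV2 stretches lie at chrXIII:637197-637226 and chrXIII:637240-637269 on the plus strand and begin 303 and 260 bases before the start codon. The second of them holds 3 cores, of which 2 abut as a palindrome. The GCV3 stretch lies at chrI:58550-58579 on the minus strand, begins 117 bases before the start codon and holds 2 cores. The SER1 stretch lies at chrXV:679161-679190 and begins 196 bases before the start codon, and the SER2 stretch lies at chrVII:911716-911745 and begins 167 bases before it, both on the plus strand.
GCV1: gctcaggagcccTGACTCgtgttgcctcga
GCV2, first: acccgacatctcTGACTCttcttgaggtat
GCV2, second: tcgGAGTCATGACTCtcagagGAGTCAtcg
GCV3: taagGAGTCAttcagcggcgGAGTCActtt
SER1: gcccaaaagtagTGACTCtttctaagcatc
SER2: ccgagaaagaaaGAGTCAatactaataatc
A match is a description of these letters and no binding was measured here.

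Total counts per library, in units of 1e6, were 5.71 to 12.7 for mRNA of the deletion strains and wild type, 8.09 to 15.44 for footprints, and 10.72 to 25.64 for the Gcn4 strains. The 10 genes had between 66 and 19761 counts in a library. In each deletion strain every library fell below every wild-type library for the deleted gene (in mRNA at most 4.28 CPM in the deletion strains, against at least 46.2 CPM in wild type), as the labels state. In Δrps27b the median log2 fold change over the 302 genes tested on chromosome XI, where MTD1 lies, was 0.95 in mRNA, and in Δrpl6a that of the 468 genes on chromosome XII, where SHM2 lies, was 0.63. MET17, also called MET15, was read at 39.6 to 51.8 CPM in Δrps27b mRNA against 0 CPM in each wild-type library, although the label gives met15Δ0. Library 3 stood apart from the others in mRNA of all 6 groups of the deletion set: the chi-square of the counts per gene was 3.47 to 15.3 between libraries 1 and 2 of a group and 22.4 to 82.6 between library 3 and either of them. Footprint library 3 of Δrpl15b stood apart as well (34.7 and 37.2, against 14.0 between the other 2). What sets these libraries apart was not tested. Fits on mRNA libraries 1 and 2 only, a choice made after seeing the data, are given where they changed a call. Those fits leave out the spread that library 3 brings, so their adjusted p-values do not measure it. Levels are given as CPM, counts per 1e6 reads of a library with TMM size correction (edgeR), and are shares of that library, so a change in total RNA per cell is not seen. A gene is called changed at a Benjamini-Hochberg adjusted p under 0.01, over all genes tested, together with a change of more than 2-fold.

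In wild type, the order of the genes differed between mRNA and footprints. Per kilobase of coding sequence, SHM2 mRNA stood highest at 452 ± 97.6 CPM per kb (SD, n = 3), followed by MTD1 at 306 ± 20.1, GCV3 at 300 ± 15.3, SER2 at 241.7 ± 9.52, SER1 at 180 ± 28.5, SHM1 at 168 ± 26.3, SER33 at 80.6 ± 10.5, GCV1 at 70.9 ± 2.79, SER3 at 41.1 ± 4.85 and GCV2 at 27.8 ± 5.05 CPM per kb. The ranges of MTD1 and GCV3, of SER1 and SHM1, and of SER33 and GCV1 overlapped, and whether these neighbours differ within libraries was not tested. Footprints per kilobase were highest for SHM2 at 606 ± 51.8 CPM per kb (SD, n = 3), then for GCV3 at 379 ± 48.8, SER1 at 320 ± 27.1, SHM1 at 241 ± 6.58, SER2 at 119 ± 6.59, SER33 at 85.2 ± 3.14, MTD1 at 73.3 ± 10.2, GCV1 at 48.1 ± 5.93, GCV2 at 30.5 ± 4.19 and SER3 at 9.22 ± 1.91 CPM per kb, and only GCV3 and SER1 overlapped. MTD1 thus stood second in mRNA and seventh in footprints. The 77 bases at the start of SER3 (chrV:322686-322762) are shared with the noncoding RNA SRG1, transcribed on the same strand, so SER3 mRNA counts may hold reads of SRG1. SER3 and SER33 are 82.6% identical in coding sequence, and 5.35% of the 28-base words of SER3 occur unchanged in SER33, where uniquely mapped reads cannot be placed.

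Across the 5 deletion strains the clearest change was in ribosome footprints of the glycine cleavage genes, in 3 strains (the plot of fold changes by strain). GCV1 and GCV2 were called higher in Δrpl7a, Δrpl9a and Δrps27b, by 2.08- to 3.27-fold, and in Δrpl6a and Δrpl15b none of the 10 genes was called in footprints. GCV1, which encodes the T subunit of the complex, had 189, 192 and 189 CPM of footprints in Δrpl7a, against 66.1, 53.6 and 54.0 CPM in wild type (log2 fold change 1.71 ± 0.10 SE, adjusted p = 1.5e-10, edgeR quasi-likelihood test). In Δrpl9a it had 184, 161 and 202 CPM (1.65 ± 0.10, adjusted p = 7.1e-10), and in Δrps27b 190, 177 and 195 CPM (1.69 ± 0.10, adjusted p = 7.5e-11). All 9 libraries of these strains stood above all wild-type libraries, and the change exceeded that of 98.6% to 99.6% of the genes tested in each strain.

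GCV2, the glycine-decarboxylating P subunit, had 174, 210 and 206 CPM of footprints in Δrpl7a, against 108, 82.3 and 93.8 CPM in wild type (log2 fold change 1.05 ± 0.11 SE, adjusted p = 2.2e-07). This change lies close to the 2-fold limit, and without wild-type library 2 it was 0.97 and no longer called. In Δrpl9a GCV2 had 240, 224 and 296 CPM (1.42 ± 0.11, adjusted p = 1.3e-08), and in Δrps27b 292, 326 and 301 CPM (1.69 ± 0.11, adjusted p = 1.7e-10). GCV3, the lipoyl-carrying H subunit, moved the same way with less than a 2-fold change. It had 376, 359 and 366 CPM in Δrpl7a, 319, 356 and 376 CPM in Δrpl9a and 346, 391 and 337 CPM in Δrps27b, against 196, 219 and 169 CPM in wild type, with log2 fold changes of 0.92, 0.85 and 0.88 (SE 0.11 each) and adjusted p at or below 5.4e-06. GCV3 was called in Δrpl7a only without wild-type library 2, at a log2 fold change of 1.01.

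**Figure D1:**
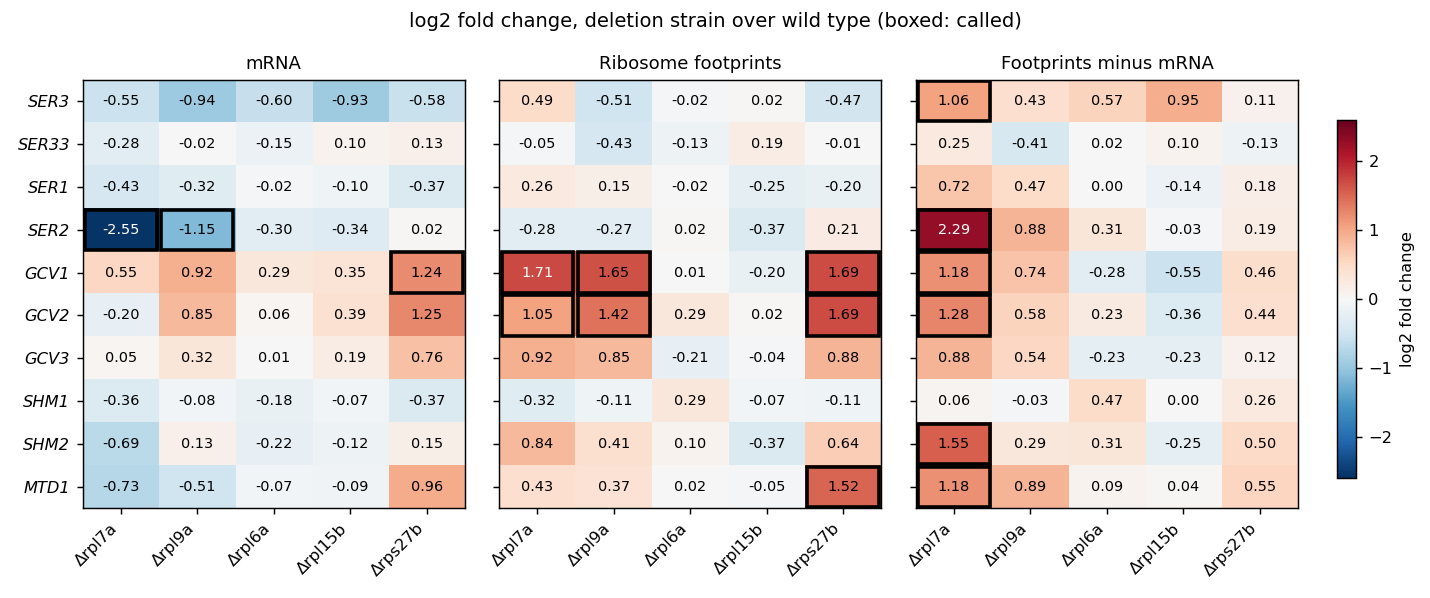
Log2 fold change of each gene (rows) in each deletion strain over wild type (columns), for mRNA, ribosome footprints and the footprint minus the mRNA change; boxes mark called changes. Footprints of GCV1 and GCV2 are boxed in Δrpl7a, Δrpl9a and Δrps27b (1.05 to 1.71), SER2 mRNA is boxed as lower in Δrpl7a and Δrpl9a (-2.55 and -1.15), and the difference column of Δrpl7a is above 0 for all 10 genes.

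The 5 comparisons share the wild-type libraries, so their fold changes are not independent of each other. Of the 10 genes, footprints of 2 were called higher and 0 lower in Δrpl7a, where 3.67% of 5342 genes were called higher and 2.17% lower. In Δrpl9a 2 were called higher and 0 lower, against 1.37% and 2.08% of all genes, and in Δrps27b 3 were called higher and 0 lower, against 3.54% and 5.45%. Of the 189 genes called higher in Δrps27b, 125 lie on chromosome XI, as does MTD1, which is 1 of the 3. DESeq2 gave the same counts in these 3 strains. With no fold minimum, an adjusted p under 0.01 was reached by 7 of the 10 genes in Δrpl7a (30% of all genes), 6 in Δrpl9a (20.8%) and 5 in Δrps27b (37.5%). The libraries of 9, 8 and 8 of the 10 genes did not overlap the wild type, in the same order, beside 49.7%, 39.9% and 55.4% of all genes. At an unadjusted p under 0.05, edgeR had 2 genes below wild type in Δrpl7a, 3 in Δrpl9a and 2 in Δrps27b. The share of all genes at that limit was not counted, here or below, so nothing is drawn from such counts. The median log2 fold change of the 10 genes was 0.46 in Δrpl7a, 0.26 in Δrpl9a and 0.43 in Δrps27b, beside medians of -0.02, -0.01 and -0.02 over all genes.

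**Figure D2:**
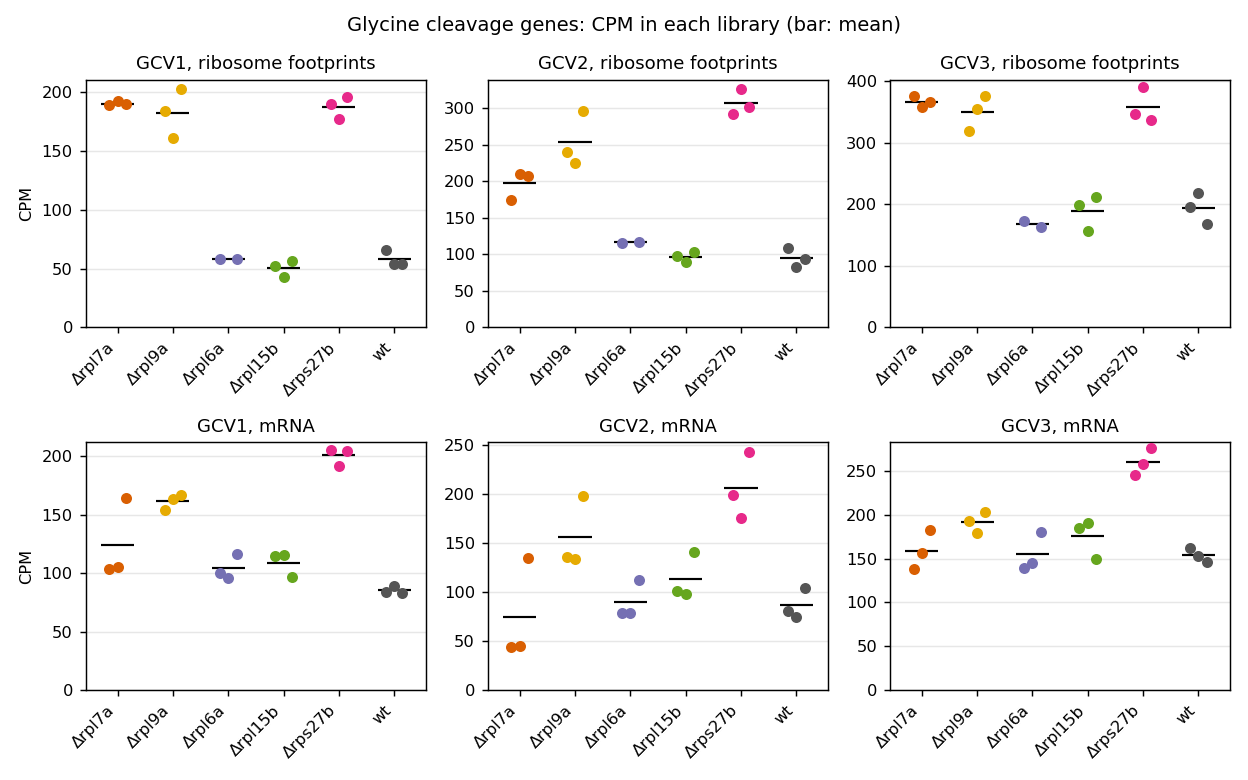
CPM of GCV1, GCV2 and GCV3 in each library of the 5 deletion strains and wild type, for footprints (upper row) and mRNA (lower row); points are libraries and bars are group means. Footprints in Δrpl7a, Δrpl9a and Δrps27b lie above every wild-type point for all 3 genes, while 1 of the 3 Δrpl7a points of GCV2 mRNA (135 CPM) stands far above the other 2.

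In mRNA of the glycine cleavage genes, GCV1 and GCV3 reached an adjusted p under 0.01 in Δrps27b, and GCV1 alone did so in Δrpl9a and in Δrpl7a. In Δrps27b GCV1 mRNA had 206, 192 and 205 CPM, against 83.6, 89.2 and 83.2 CPM in wild type (log2 fold change 1.24 ± 0.15 SE, adjusted p = 1.4e-05). It was the only one of the 10 genes called in Δrps27b mRNA, where 4.1% of 5490 genes were called higher and 1.44% lower. Of the 225 genes called higher, 132 lie on chromosome XI, while GCV1 lies on chromosome IV. An adjusted p under 0.01 with no fold minimum was reached by 3 of the 10 (13.8% of all genes), and the libraries of 7 of the 10 did not overlap the wild type (42.8%). GCV2 mRNA had 199, 176 and 243 CPM there, against 80.6, 74.3 and 104 CPM in wild type (1.25 ± 0.33, adjusted p = 0.011). With the replicate number as a block GCV2 was called as well (1.26, adjusted p = 5.2e-05), which makes 2 genes, and on mRNA libraries 1 and 2 only GCV2 (1.28, adjusted p = 4e-11) and MTD1 (1.07, adjusted p = 1e-09) were called, which makes 3. GCV3 mRNA had 245, 258 and 276 CPM, against 162, 153 and 146 CPM (0.76 ± 0.13, adjusted p = 0.00041), a change under 2-fold.

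In Δrpl9a the log2 fold change of mRNA was 0.92 ± 0.15 (SE) for GCV1 (adjusted p = 0.00024), 0.85 ± 0.33 for GCV2 (adjusted p = 0.058) and 0.32 ± 0.13 for GCV3 (adjusted p = 0.071), and none of them reached 2-fold. In Δrpl7a the values were 0.55 ± 0.15 for GCV1 (adjusted p = 0.0048), -0.20 ± 0.33 for GCV2 (adjusted p = 0.61) and 0.05 ± 0.13 for GCV3 (adjusted p = 0.76). GCV2 mRNA in Δrpl7a rested on 1 library: it had 44.1, 45.0 and 135 CPM, and without the library at 135 CPM the log2 fold change was -0.98 (adjusted p = 0.0016). The Δrpl7a and wild-type libraries of GCV2 mRNA overlapped only because of that library. On mRNA libraries 1 and 2 only, the Δrpl7a values were 0.25 for GCV1 (adjusted p = 0.012) and -0.83 for GCV2 (adjusted p = 7.5e-08).

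Of Gcn4 and Bas1, the regulators that share the TGACTC core, footprints of GCN4 were called higher in Δrpl7a and Δrpl9a. Those of BAS1 were called higher in Δrps27b only. GCN4 footprints had 244, 256 and 252 CPM in Δrpl7a and 92.6, 96.9 and 91.6 CPM in Δrpl9a, against 38.2, 37.1 and 30.1 CPM in wild type (log2 fold changes 2.84 ± 0.18 and 1.42 ± 0.17, adjusted p = 1.6e-10 and 3.9e-06). In Δrps27b they had 22.4, 24.6 and 27.1 CPM, below all 3 wild-type libraries (-0.50 ± 0.19, adjusted p = 0.032), and GCN4 was not called there. BAS1, which lies on chromosome XI, had 68.4, 63.1 and 70.4 CPM of footprints in Δrps27b, against 27.7, 29.5 and 33.4 CPM (1.16 ± 0.12, adjusted p = 1.1e-07). The median footprint change over the 300 genes tested on chromosome XI was 0.90 in that strain. How much of the BAS1 change goes with that shift was not tested. Δrps27b also differs from wild type in its MET17 reads, as described above. The part of GCN4, of BAS1, of the chromosome XI shift or of MET17 in the GCV and MTD1 changes was not tested.

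MTD1 and SHM2, the cytosolic one-carbon pair, were also higher in footprints. MTD1 was called higher in Δrps27b, with 208, 203 and 194 CPM against 59.5, 78.1 and 74.3 CPM in wild type (log2 fold change 1.52 ± 0.10 SE, adjusted p = 1.7e-10). Its mRNA there had 553, 640 and 529 CPM, against 279, 290 and 316 CPM (0.96 ± 0.13, adjusted p = 5.9e-05). The groups did not overlap in either assay, but MTD1 shares its chromosome with the shift described above: after subtraction of the median of the other chromosome XI genes, the mRNA difference was 0.01 and the footprint difference 0.61 on the log2 scale. In mRNA MTD1 reached 2-fold only without Δrps27b library 3 (1.01), without wild-type library 3 (1.01) or without both, on mRNA libraries 1 and 2 only (1.07).

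SHM2 footprints had 1566, 1452 and 1561 CPM in Δrpl7a, 1170, 1017 and 1219 CPM in Δrpl9a and 1299, 1390 and 1307 CPM in Δrps27b, against 770, 891 and 900 CPM in wild type. All 9 libraries stood above wild type, with log2 fold changes of 0.84 ± 0.09 (SE, adjusted p = 6.3e-07), 0.41 ± 0.09 (adjusted p = 0.0022) and 0.64 ± 0.09 (adjusted p = 1e-05), each under 2-fold. MTD1 footprints changed by 0.43 ± 0.10 in Δrpl7a (adjusted p = 0.0015) and 0.37 ± 0.10 in Δrpl9a (adjusted p = 0.0062). The mitochondrial SHM1 was lower in Δrpl7a, with 284, 270 and 302 CPM against 346, 366 and 355 CPM in wild type (-0.32 ± 0.07, adjusted p = 0.00064).

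SER2, which encodes the last enzyme of serine synthesis, carried the largest mRNA change of the 10 genes in the deletion strains. Its mRNA had 26.4, 30.2 and 57.7 CPM in Δrpl7a and 84.8, 89.1 and 130 CPM in Δrpl9a, against 216, 234 and 224 CPM in wild type. No library of either strain overlapped the wild type. SER2 mRNA was called lower in Δrpl7a (log2 fold change -2.55 ± 0.25 SE, adjusted p = 6.5e-07) and in Δrpl9a (-1.15 ± 0.23, adjusted p = 0.0014). It was the only one of the 10 genes called in either strain, where 6.36% and 1.18% of 5490 genes were called lower. No gene was called higher (12.3% and 6.78% of all genes), by edgeR or by DESeq2, and at an unadjusted p under 0.05 edgeR had 1 gene above wild type in Δrpl7a and 3 in Δrpl9a. With no fold minimum, 4 of the 10 genes reached an adjusted p under 0.01 in each strain, beside 44.8% of all genes in Δrpl7a and 18.1% in Δrpl9a. The libraries of 7 of the 10 did not overlap the wild type in each, beside 61.5% and 43.2%. In Δrpl9a the SER2 call was lost without Δrpl9a library 1 (-1.03, adjusted p = 0.012) or library 2 (-1.06, adjusted p = 0.011). On mRNA libraries 1 and 2 only it was called in both strains.

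Footprints of SER2 stood lower too, but by less. They had 98.4, 81.8 and 93.0 CPM in Δrpl7a and 84.5, 94.4 and 95.8 CPM in Δrpl9a, against 116, 104 and 111 CPM in wild type, which is a log2 fold change of -0.28 ± 0.08 (SE, adjusted p = 0.0088) in Δrpl7a and -0.27 ± 0.08 (adjusted p = 0.014) in Δrpl9a. The difference between the footprint and the mRNA change in Δrpl7a was 2.29 ± 0.26 on the log2 scale (adjusted p = 1.2e-07), larger than that of 99.7% of the genes tested. In Δrpl9a it was 0.88 and was not called.

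**Figure D3:**
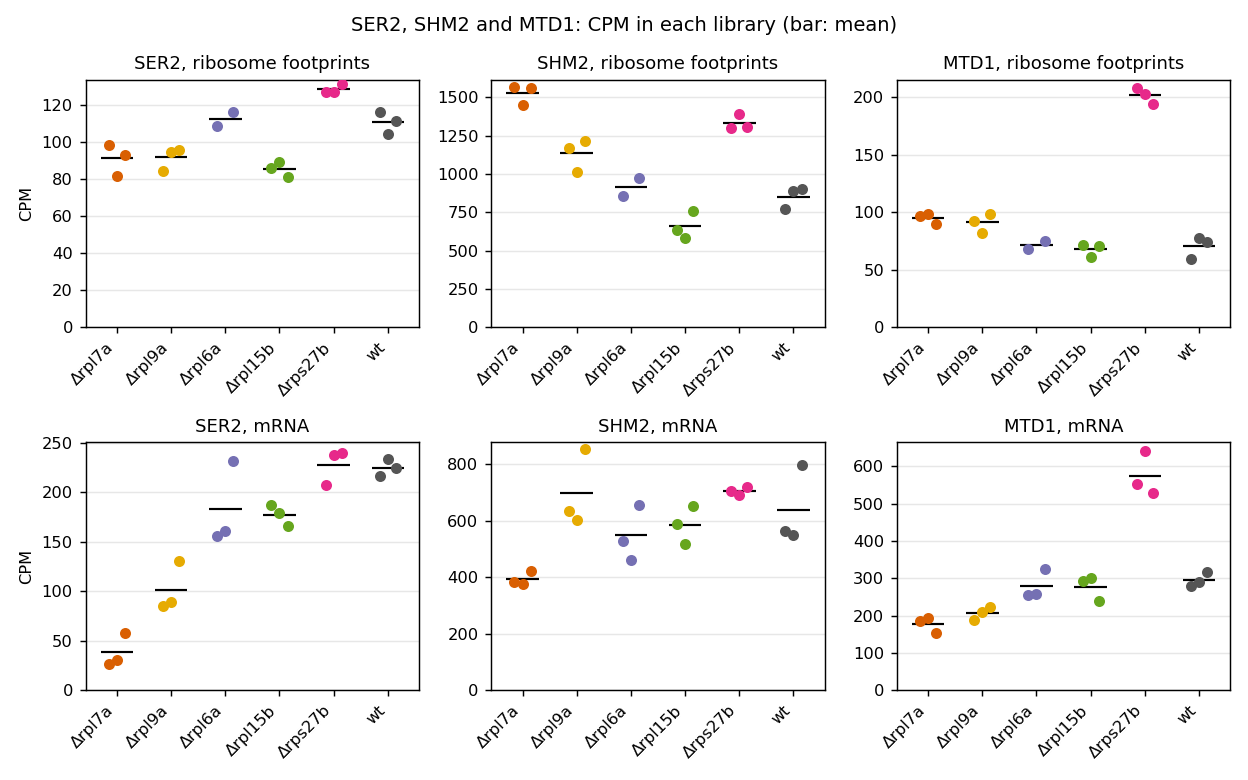
CPM of SER2, SHM2 and MTD1 in each library of the 5 deletion strains and wild type, for footprints (upper row) and mRNA (lower row); points are libraries and bars are group means. SER2 mRNA lies at 26.4 to 57.7 CPM in Δrpl7a and at 216 to 234 CPM in wild type, while its footprints stay within 81.0 and 131 CPM in every strain; MTD1 stands apart in Δrps27b in both assays.

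The other serine synthesis genes changed less. SER3, the first enzyme of the path, had 20.6, 29.2 and 40.7 CPM of mRNA in Δrpl9a, against 57.0, 65.3 and 51.7 CPM in wild type (log2 fold change -0.94 ± 0.23 SE, adjusted p = 0.0058). It was called there only without Δrpl9a library 3 (-1.22), without wild-type library 3 (-1.01) or on mRNA libraries 1 and 2 only (-1.33, adjusted p = 2.5e-08). SER3 mRNA libraries lay below wild type in all 5 strains, with log2 fold changes of -0.94 to -0.55, and with all libraries none of these changes was called. SER33 footprints had 86.3, 87.4 and 93.2 CPM in Δrpl9a, against 120, 116 and 124 CPM in wild type (-0.43 ± 0.09, adjusted p = 0.00059). SER1 mRNA changed by -0.43 ± 0.14 in Δrpl7a (adjusted p = 0.014) and its footprints by 0.26 ± 0.08 (adjusted p = 0.014), in opposite directions.

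Setting footprints against mRNA in 1 model of 35 libraries, with each assay scaled on its own, gave the change in translation efficiency. In Δrpl7a it was above 0 for all 10 genes, with a median of 1.12 on the log2 scale beside -0.01 over all 5319 genes. It was called higher for 6 of them, SER2, SHM2, GCV2, GCV1, MTD1 and SER3, and lower for 0, while 5.21% of all genes were called higher and 10.1% lower and 49.4% lay above 0. An adjusted p under 0.01 with no fold minimum was reached by 8 of the 10, beside 30.5% of all genes. By DESeq2 6 were higher and 0 lower, and edgeR had 0 below at an unadjusted p under 0.05. Next to the value of SER2 stood SHM2 at 1.55 ± 0.20 (SE, adjusted p = 1e-06), GCV2 at 1.28 ± 0.37 (adjusted p = 0.006), GCV1 at 1.18 ± 0.19 (adjusted p = 1.3e-05), MTD1 at 1.18 ± 0.17 (adjusted p = 4.4e-06) and SER3 at 1.06 ± 0.30 (adjusted p = 0.0048). GCV3 at 0.88 ± 0.17 (adjusted p = 0.00017) and SER1 at 0.72 ± 0.17 (adjusted p = 0.0011) stayed under 2-fold, and SER33 at 0.25 ± 0.15 and SHM1 at 0.06 ± 0.17 did not pass the test.

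For SER2, SHM2 and MTD1 a lower mRNA level met a footprint level that was higher or fell less, whereas for GCV1 both levels were higher in Δrpl7a. SHM2 mRNA had 385, 378 and 421 CPM in Δrpl7a, against 565, 551 and 796 CPM in wild type (log2 fold change -0.69 ± 0.17 SE, adjusted p = 0.0021), and MTD1 mRNA had 186, 192 and 154 CPM, against 279, 290 and 316 CPM (-0.73 ± 0.13, adjusted p = 0.00023). The calls for SER3 and GCV2 were the least firm: that of SER3 was lost without any of 5 single libraries (mRNA Δrpl7a 3, mRNA wild type 2, footprint Δrpl7a 3, footprint wild type 1 and 3; 0.82 to 1.05), and that of GCV2 without any of 7 (mRNA Δrpl7a 1 and 2, mRNA wild type 3, footprint Δrpl7a 2 and 3, footprint wild type 2 and 3; 0.99 to 1.27), although that of GCV2 was 2.03 without mRNA library 3 of Δrpl7a. On mRNA libraries 1 and 2 only the count stayed at 6, but SER3 was no longer called (0.90, adjusted p = 0.0021) and GCV3 was (1.03, adjusted p = 2.9e-06). The calls of SER2, SHM2, GCV1 and MTD1 held in every alternative tried.

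In Δrpl9a none of the 10 genes was called in translation efficiency (1.75% of all genes were called higher and 7.03% lower), by edgeR or DESeq2. By edgeR 6 of the 10 were at an unadjusted p under 0.05, and the share of all genes at that limit was not counted. Adjusted p was under 0.01 for 3 of the 10 with no fold minimum, beside 16.3% of all genes. MTD1 at 0.89 ± 0.17 (SE, adjusted p = 0.00028), SER2 at 0.88 ± 0.25 (adjusted p = 0.0088) and GCV1 at 0.74 ± 0.18 (adjusted p = 0.0034) stayed under 2-fold, and SER2 passed it only without mRNA library 3 of Δrpl9a (1.13) or on mRNA libraries 1 and 2 only (1.12, adjusted p = 5.3e-08). In Δrps27b none was called either (1.58% higher and 4.44% lower among all genes) by either tool, and 3 genes were at an unadjusted p under 0.05. GCV1 and GCV2 stood at 0.46 ± 0.18 (adjusted p = 0.072) and 0.44 ± 0.36 (adjusted p = 0.4) in that strain. Whether Δrpl7a differed from the other strains in translation efficiency was not tested.

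In the short-lived strains Δrpl6a and Δrpl15b none of the 10 genes was called in mRNA, footprints or translation efficiency, by edgeR or by DESeq2, except that SER3 was called lower in Δrpl15b on mRNA libraries 1 and 2 only (-1.02, adjusted p = 5.1e-06). The share of all genes called there was 5.05%, 2.92% and 2.39% in Δrpl6a and 0.492%, 1.39% and 0.207% in Δrpl15b, in the same order. In Δrpl6a, 110 of the 277 genes called in mRNA and 96 of the 156 called in footprints were chromosome XII genes called higher. At an unadjusted p under 0.05 there were 1, 2 and 1 of the 10 genes in Δrpl6a and 2, 4 and 2 in Δrpl15b. The share of all genes at that limit was not counted, and nothing is drawn from these counts. The libraries of 2 of the 10 genes did not overlap the wild type in Δrpl6a in either assay, beside 42.7% of all genes in mRNA and 41.2% in footprints. In Δrpl15b these were 3 in mRNA and 4 in footprints, beside 25.5% and 17.2%. GCV1 footprints had 58.5 and 58.6 CPM in Δrpl6a and 52.2, 42.8 and 56.3 CPM in Δrpl15b, overlapping the wild type. The approximate 95% intervals of the log2 fold change were -0.22 to 0.25 in Δrpl6a and -0.41 to 0.01 in Δrpl15b. A 2-fold change of GCV1 lies outside both. The largest footprint changes past an adjusted p of 0.01 were SHM1 in Δrpl6a (0.29 ± 0.07 SE, adjusted p = 0.0086) and SER2 in Δrpl15b (-0.37 ± 0.08, adjusted p = 0.0072). SHM2 in Δrpl6a stood at 0.10 ± 0.10 in footprints (adjusted p = 0.56) and -0.22 ± 0.17 in mRNA (adjusted p = 0.39), and relative to the other genes of chromosome XII at -0.44 and -0.85.

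In PADH1-GCN4, which overexpresses Gcn4, most of the path was higher. Of the 10 genes 6 were called higher in mRNA and 0 lower, beside 6.49% of 5547 genes called higher and 1.98% lower. DESeq2 also had 6 and 0, and at an unadjusted p under 0.05 edgeR had 0 below wt(met). With no fold minimum, 7 of the 10 reached an adjusted p under 0.01 (33.9% of all genes), and the libraries of 8 did not overlap wt(met) (57.1%). GCN4 mRNA itself had 3697, 3558 and 4009 CPM in PADH1-GCN4, against 1024.5, 929 and 1142 CPM in wt(met) (log2 fold change 1.86 ± 0.11 SE, adjusted p = 9.4e-08), and BAS1 had 222, 223 and 214 CPM, against 85.8, 85.0 and 78.4 CPM (1.39 ± 0.09, adjusted p = 1.8e-07).

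The glycine cleavage genes were all among the 6. GCV2 had 216, 199 and 222 CPM in PADH1-GCN4, against 51.1, 56.9 and 57.6 CPM in wt(met) (log2 fold change 1.94 ± 0.10 SE, adjusted p = 2.6e-08). GCV1 had 191, 173 and 192 CPM, against 71.7, 76.0 and 80.7 CPM (1.28 ± 0.09, adjusted p = 7.8e-07), and GCV3 494, 601 and 627 CPM, against 256, 281 and 227 CPM (1.16 ± 0.12, adjusted p = 1.3e-05). No library of the 3 genes overlapped between the strains.

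In serine synthesis SER1 had 586, 503 and 583 CPM in PADH1-GCN4, against 194, 205 and 204 CPM in wt(met) (log2 fold change 1.46 ± 0.10 SE, adjusted p = 3.3e-07). SER3 rose by 1.01 ± 0.14 (adjusted p = 0.00015), just past 2-fold, and its call was lost without PADH1-GCN4 library 1 (0.88), PADH1-GCN4 library 3 (0.98) or wt(met) library 2 (0.93). SER33 at 0.98 ± 0.10 (adjusted p = 1.7e-05) stood just under 2-fold, and was called without PADH1-GCN4 library 2 (1.05) or wt(met) library 3 (1.05). SHM1 had 415, 388 and 488 CPM, against 196, 213 and 174 CPM (1.14 ± 0.12, adjusted p = 1.6e-05). SER2, SHM2 and MTD1 did not pass the test, with log2 fold changes of 0.00, 0.18 and 0.13. Their approximate 95% intervals were -0.20 to 0.20, 0.01 to 0.36 and -0.05 to 0.31. These intervals use a normal quantile of the SE and are narrower than the test implies. That of SHM2 lies above 0, although its unadjusted p was not under 0.05 by edgeR. The TGACTC core was found before 4 of the 6 called genes and before all 4 of the others, and nothing is drawn from these counts.

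**Figure D4:**
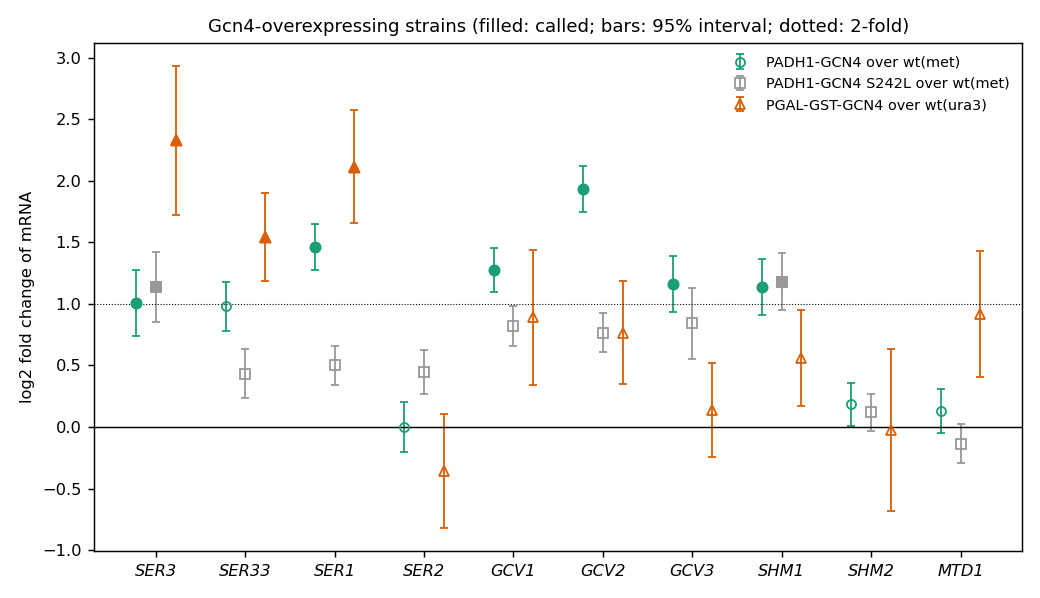
Log2 fold change of mRNA (vertical axis) of each gene in PADH1-GCN4 and PADH1-GCN4 S242L over wt(met) and in PGAL-GST-GCN4 over wt(ura3). Filled symbols are called changes and bars are approximate 95% intervals. GCV2 stands at 1.94 in PADH1-GCN4 and 0.76 in S242L, SER3 and SER1 are above 2 only in PGAL-GST-GCN4, and SER2, SHM2 and MTD1 are called in no strain.

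In PGAL-GST-GCN4 SER3, SER1 and SER33 of serine synthesis were called higher. Of the 10 genes these 3 were called higher and 0 lower, beside 14% of 5574 genes called higher and 9.45% lower. DESeq2 had the same 3 and 0, and at an unadjusted p under 0.05 edgeR had 0 below wt(ura3). An adjusted p under 0.01 was reached by the same 3 genes with no fold minimum (33.6% of all genes), and the libraries of 7 of the 10 did not overlap wt(ura3) (59.2%). SER3 had 228, 565 and 392 CPM, against 65.9, 89.8 and 79.9 CPM in wt(ura3) (log2 fold change 2.33 ± 0.31 SE, adjusted p = 0.00031). SER1 had 733, 920 and 827 CPM, against 247, 182 and 144 CPM (2.12 ± 0.23, adjusted p = 0.00011), and SER33 371, 370 and 346 CPM, against 133, 145 and 96.0 CPM (1.54 ± 0.18, adjusted p = 0.00016). GCN4 reads, which also come from the plasmid, were 5.32 ± 0.36 higher on the log2 scale.

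The glycine cleavage genes stood at 0.89 ± 0.28 (SE, GCV1, adjusted p = 0.026), 0.77 ± 0.21 (GCV2, adjusted p = 0.016) and 0.14 ± 0.19 (GCV3, adjusted p = 0.57) in PGAL-GST-GCN4, and MTD1 at 0.92 ± 0.26 (adjusted p = 0.017). Library 1 of wt(ura3) stood above the other 2 for SHM2 (468, against 222 and 177 CPM), and without it GCV1 (1.197, adjusted p = 0.0084) and MTD1 (1.21, adjusted p = 0.0057) were called too, which makes 5 genes. The plasmid pair was compared only within itself, and whether its changes differ from those of PADH1-GCN4 was not tested. The 2 plasmids also differ: LEU2 stood at 4097 to 5307 CPM in PGAL-GST-GCN4 and at 1.81 to 3.37 CPM in wt(ura3).

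In the strain with the S242L form of Gcn4, SER3 and SHM1 were called higher than in wt(met), while GCV2 and SER1 stood lower than in PADH1-GCN4. In PADH1-GCN4 S242L 2 of the 10 genes were called higher over wt(met) and 0 lower (2.9% and 1.35% of 5545 genes), by edgeR and by DESeq2, with 0 below wt(met) at an unadjusted p under 0.05. With no fold minimum 8 of the 10 reached an adjusted p under 0.01 (13.2% of all genes), and the libraries of 9 did not overlap wt(met) (41.2%). The called genes were SER3 with 102, 80.0 and 77.9 CPM, against 44.0, 35.02 and 39.4 CPM (log2 fold change 1.13 ± 0.15 SE, adjusted p = 0.0001), and SHM1 with 401, 416 and 505 CPM, against 196, 213 and 174 CPM (1.18 ± 0.12, adjusted p = 1.2e-05). GCN4 mRNA was 2.42 ± 0.10 higher on the log2 scale than in wt(met), and PADH1-GCN4 lay below the mutant by -0.56 ± 0.10 (adjusted p = 0.00084).

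Set directly against the mutant, PADH1-GCN4 had 1 of the 10 genes called higher and 0 lower (2.87% and 0.613% of all genes), with the same counts by DESeq2 and 1 gene below at an unadjusted p under 0.05. An adjusted p under 0.01 with no fold minimum was reached by 5 of the 10 (22.8% of all genes), and the libraries of 6 did not overlap (46.3%). GCV2 had 216, 199 and 222 CPM in PADH1-GCN4, against 92.4, 96.2 and 92.8 CPM in the mutant (log2 difference 1.18 ± 0.08 SE, adjusted p = 5.3e-07). SER1 had 586, 503 and 583 CPM, against 290, 287 and 276 CPM (0.97 ± 0.08, adjusted p = 3.5e-06), and was called without PADH1-GCN4 library 2 (1.03), which makes 2 genes. SER33 at 0.56 ± 0.10 (adjusted p = 0.0012) and GCV1 at 0.46 ± 0.08 (adjusted p = 0.00099) were also higher in PADH1-GCN4, and SER2 was lower at -0.44 ± 0.09 (adjusted p = 0.0026). For SER3 (-0.12, approximate 95% interval -0.40 to 0.16) and SHM1 (-0.04, -0.27 to 0.19) no difference was detected. The mutant counts were deposited in another table than those of PADH1-GCN4, beside the same wt(met) counts, and the sources used here do not say whether the libraries were sequenced together.

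Among 24 other genes of the pathway and its regulators, chosen by function, 7 rose and 1 fell in PADH1-GCN4 (6.49% and 1.98% of all genes), 8 rose and 3 fell in PGAL-GST-GCN4 (14% and 9.45%), and 5 rose and 1 fell in PADH1-GCN4 S242L (2.9% and 1.35%). Each of these counts of higher genes includes GCN4, which is overexpressed by construction, and BAS1. In PADH1-GCN4 against the mutant, ADE3 and MET13 were called higher and CHA1 lower. GLY1, the threonine aldolase that makes glycine, rose in all 3 by 1.76, 1.23 and 1.73 on the log2 scale, as did FOL2 of folate synthesis by 1.33, 1.74 and 1.02 and MET13, a methylenetetrahydrofolate reductase, by 3.58, 2.33 and 1.29, in the same order. ADE3, the cytosolic trifunctional one-carbon enzyme, rose by 1.80 in PADH1-GCN4 and 2.08 in PGAL-GST-GCN4. MET6, the methionine synthase, rose by 1.78 in PADH1-GCN4. LPD1, the subunit that the glycine cleavage complex shares with other dehydrogenases, rose in PGAL-GST-GCN4 (1.06), and AGX1, the alanine-glyoxylate aminotransferase, rose there by 2.79.

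CHA1, the serine and threonine deaminase that serine induces, was the gene that fell in all 3 Gcn4 strains. It had 123, 105 and 109 CPM in PADH1-GCN4 and 235, 241 and 205 CPM in PADH1-GCN4 S242L, against 474, 417 and 474 CPM in wt(met) (log2 fold changes -2.03 ± 0.10 and -1.005 ± 0.10 SE, adjusted p = 3e-08 and 7.5e-06). PADH1-GCN4 also lay below the mutant by 1.02 on the log2 scale (adjusted p = 9.6e-06). In PGAL-GST-GCN4 CHA1 fell by 1.97 (adjusted p = 0.0032), with CHO1 of phosphatidylserine synthesis by 1.51 and CDC21, the thymidylate synthase, by 1.65.

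In mRNA of the deletion strains, 2 of the 24 genes rose and 2 fell in Δrpl7a (12.3% and 6.36% of all genes), 1 rose and 0 fell in Δrpl9a (6.78% and 1.18%), and 0 rose and 1 fell in Δrps27b (4.1% and 1.44%). In footprints 3 rose and 0 fell in Δrpl7a (3.67% and 2.17% of all genes), 1 rose and 0 fell in Δrpl9a (1.37% and 2.08%), and 1 rose and 1 fell in Δrps27b (3.54% and 5.45%). In Δrpl7a mRNA AGX1 (1.90) and MET13 (1.55) rose and DFR1 (-1.29) and FOL1 (-1.10) fell, both of them genes of tetrahydrofolate supply. In Δrpl7a footprints MET13 (2.25) and MET6 (1.01) rose beside GCN4. In Δrps27b MET6 fell in mRNA (-1.08) and in footprints (-1.26), in the strain whose libraries also hold MET17 reads. BAS1, on the shifted chromosome XI, rose in footprints there. In Δrpl9a AGX1 mRNA (1.21) and GCN4 footprints rose, and in Δrpl6a CHA1 mRNA (1.58) and MET13 footprints (1.33) rose. In Δrpl15b no gene of the 24 was called in either assay. In translation efficiency GCN4 (2.80 ± 0.26 SE, adjusted p = 3.8e-09) and DFR1 (1.32 ± 0.21, adjusted p = 1.7e-05) were higher in Δrpl7a, GCN4 was higher (1.14 ± 0.26, adjusted p = 0.0013) and AGX1 lower (-1.74 ± 0.49, adjusted p = 0.009) in Δrpl9a, and none of the 24 was called in the other 3 strains.

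Over the 18 mRNA libraries of the deletion strains and wild type, Pearson's r of log2 CPM was 0.88 between GCV1 and GCV3, 0.80 between GCV2 and GCV3 and 0.76 between GCV1 and GCV2. It was of like size for pairs from different steps, at 0.81 between SER33 and SHM2, 0.78 between GCV2 and SHM2, 0.76 between SER1 and SHM1, 0.73 between SER33 and GCV2, 0.72 between SER2 and MTD1 and 0.70 between SER2 and SHM2. It was -0.09 between the paralogs SER3 and SER33 and -0.12 between SHM1 and MTD1. These correlations run over 6 strains, with library 3 apart in each, and are given as a description. Of 4812 genes whose log2 CPM averaged 4 or more, the pattern of SER2 was most like those of AIR1 (r = 0.99), RPS0A (0.99) and RPS6B (0.98), and that of GCV2 like those of COM2 (0.94), VPH1 (0.92) and ASN1 (0.89). The 3 genes most like MTD1 were URA6 (0.96), CTK1 (0.96) and KTI12 (0.95), all on the same chromosome as MTD1, and those most like SHM2 were MES1 (0.94), ERB1 (0.94) and NMD5 (0.93).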

How the data were processed

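The authors trimmed reads with the FASTX-toolkit, mapped them to the yeast transcriptome with segemehl and deposited raw counts of uniquely mapped reads per gene, for footprints over coding regions only. The labels name sacCer3 and DESeq2. The sources used here do not say whether counting used the strand. Deposited tables of the authors' own fold changes were not used. The wt(met) counts were deposited in a second table as identical copies and were counted once. From the counts, edgeR 4.0.16 (filterByExpr, TMM, quasi-likelihood F test, Benjamini-Hochberg over all genes tested, two-sided, R 4.3.3) was fitted to all libraries of a table. For both comparisons of S242L, the 9 libraries of PADH1-GCN4, S242L and wt(met), from 2 tables, were joined in 1 fit. Translation efficiency was the interaction term of 1 fit over 35 libraries. Thresholds (adjusted p under 0.01 and a change over 2-fold) followed the study's methods. The 95% intervals are the estimate plus or minus a normal quantile of its SE. They are approximate, and narrower than the quasi-likelihood test implies. Scripts were tested on simulated data. DESeq2 1.42.0, other scalings, no count filter, only the groups compared, a replicate block, libraries left out in turn and chromosome medians were the alternatives, and mRNA libraries 1 and 2 only were added after seeing the data.

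Same-numbered mRNA libraries deviated together in the deletion strains (every r between 0.19 and 0.62) and in the plasmid pair (0.37 to 0.44). Such a pairing comes from the data and not from the labels. Library 1 of Δrpl7a and of Δrpl9a matched wild-type library 2 best, and library 2 of Δrpl15b matched wild-type library 1 best. The main fits and their p-values used group means and left the pairing out, and only the replicate block among the alternatives took it in. For footprint and PADH1 libraries the numbers were not taken to pair samples. The 10 genes and the 24 pathway genes were chosen with earlier results of these data known, and all 10 are described whatever their change. Of the 24, the called genes and GCN4 and BAS1 are given with values, and the 3 genes of most similar pattern by Pearson's r were sought for each of the 10. Sequences were read from RefSeq's R64 genome, by coordinates, since no promoter or protein table was used here. The library totals limit the precision of low counts. The p-values set each difference against the spread between replicate cultures, estimated over all groups of a fit, and do not cover other isolates of a strain. In mRNA of the deletion set this spread includes that of library 3, except in the fits on mRNA libraries 1 and 2 only. Library totals ranged from 5.71 to 25.64 times 1e6.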

Additional observations from a re-analysis of the deposited data

Results flagged for a closer look

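In Δrpl7a the footprint and the mRNA change differed from each other for 6 of the 10 genes, at an adjusted p under 0.01 and by more than 2-fold: by 2.29 on the log2 scale for SER2, 1.55 for SHM2, 1.28 for GCV2, 1.18 for GCV1, 1.18 for MTD1 and 1.06 for SER3. At this adjusted p with no fold minimum there were 8 of the 10 genes, beside 30.5% of all genes. Of all genes 5.21% were called higher and 10.1% lower. The calls of SER3 and GCV2 were lost without single libraries.

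For 6 genes, every library of 1 strain lay above and every library of another below the wild type, 1 of them in mRNA, where this held for 17.2% of 5490 genes, and 5 in footprints, where it held for 24.3% of 5342 genes. These differences between strains were not tested, and the strains share the wild-type libraries. In mRNA, MTD1 stood at 0.96 in Δrps27b, -0.73 in Δrpl7a and -0.51 in Δrpl9a (log2 fold changes, as are those that follow). In footprints, SER3 stood at 0.49 in Δrpl7a, -0.51 in Δrpl9a and -0.47 in Δrps27b, and SER33 at 0.19 in Δrpl15b and -0.43 in Δrpl9a. SER2 stood at 0.21 in Δrps27b, -0.28 in Δrpl7a, -0.27 in Δrpl9a and -0.37 in Δrpl15b. SHM1 stood at 0.29 in Δrpl6a, -0.32 in Δrpl7a, -0.072 in Δrpl15b and -0.11 in Δrps27b. SHM2 stood at 0.84 in Δrpl7a, 0.41 in Δrpl9a, 0.64 in Δrps27b and -0.37 in Δrpl15b. No group held 4 or more libraries, so no single value was tested for standing apart within its group.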

How the results depend on the processing

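The count of genes called in Δrps27b mRNA was 2 instead of 1 (GCV1 and GCV2) with DESeq2, with only the groups compared, with the replicate block and with scaling that left out chromosomes XI and XII. With 1 library left out it ranged from 1 to 2 there, from 0 to 2 in Δrpl9a mRNA, from 3 to 5 in PGAL-GST-GCN4, from 1 to 2 for PADH1-GCN4 against S242L, from 0 to 1 for translation efficiency in Δrpl9a, from 4 to 6 for translation efficiency in Δrpl7a and from 5 to 7 in PADH1-GCN4. The calls of SER3 and GCV2 in the translation efficiency of Δrpl7a were also lost when only Δrpl7a and wild type were fitted (1.06, adjusted p = 0.015, and 1.28, adjusted p = 0.041). For the unpaired PADH1 libraries a replicate block left SER3 at 0.99 and uncalled, and the block changed no other call of a gene than this one and GCV2 in Δrps27b. On mRNA libraries 1 and 2 only, a choice made after seeing the data, the count called was 3 in Δrps27b mRNA (GCV1, GCV2 and MTD1), 2 in Δrpl9a mRNA (SER2 and SER3), 1 in Δrpl15b mRNA (SER3), 1 in translation efficiency of Δrpl9a (SER2) and 6 in that of Δrpl7a, where GCV3 took the place of SER3. Of 2644 alternative values none reversed a called change, and 108 changed sign while uncalled both times. The 108 leave out values set against a chromosome median, where SHM2 footprints in Δrpl6a also changed sign, to -0.44. Over all genes, counts with 1 library left out were not compared. In the other alternatives, the count of called changes moved by more than 1.5 times only in Δrpl15b and Δrpl6a. In Δrpl15b mRNA it was 27. There DESeq2 gave 56, only the groups compared 54, the replicate block 80 and mRNA libraries 1 and 2 only 98. In Δrpl15b footprints it was 74, and 46 with only the groups compared. In Δrpl15b translation efficiency it was 11, 17 with DESeq2 and 24 on mRNA libraries 1 and 2 only. In Δrpl6a it was 127 in translation efficiency, 208 with the replicate block and 232 on mRNA libraries 1 and 2 only. Low footprint counts, as for SER3, limit its precision.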
